A study of Mus musculus with 12 samples.

Results

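The genes described here are 7 mouse genes whose human counterparts carry a CAG repeat that causes a neurodegenerative disease when it expands: Atxn2, Atxn3, Atxn7, Tbp, Atn1, Htt and Ppp2r2b. They were chosen by symbol, as CAG-repeat disease genes other than Atxn1 and Cacna1a, and all 7 matched 1 identifier each among the 55401 gene identifiers in the count tables. RNA of the cerebellum was sequenced from 12 mice, 1 library per mouse, in 3 groups of 4. The Het DMSO mice (libraries 409, 411, 420 and 429) and the Het Hit 2 mice (410, 421, 422 and 430) were heterozygous for a knock-in allele, with a genotype that the labels write Atxn1154Q/2Q, and model spinocerebellar ataxia type 1 (SCA1); their expanded tract sits in Atxn1 and in no gene of the set. The WT DMSO mice (413, 425, 426 and 431) were wild type. Treatment ran from 18 to 20 weeks of age, with daily intraperitoneal injections in 2 courses of 5 days separated by 2 rest days. Hit 2, a compound known here only by that name, was dissolved in dimethyl sulfoxide (DMSO) at 25 mg/ml, and the other groups received DMSO alone, so every mouse of all 3 groups was exposed to DMSO. There was no wild-type group given Hit 2 and no uninjected group.

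In 6 of these genes the human repeat is translated into a run of glutamines, and an expanded run makes the protein prone to misfold and aggregate. Ppp2r2b is the exception, since its human repeat lies outside the coding sequence, upstream of a part of the gene's transcripts. The series concerns compounds selective for RNAs with expanded CAG repeats, per its title, and the mouse genes are known to have shorter or more interrupted runs than their human counterparts.

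The runs present in the mouse transcripts are shown first, because the genes were grouped for their repeats. Each line gives the DNA-sense coding strand, 5′ to 3′, from the GENCODE M21 transcripts, with 12 bases on either side. Capitals mark the longest run of glutamine codons (CAG or CAA), except in Atxn2, where they mark the longest uninterrupted CAG run.
Tbp: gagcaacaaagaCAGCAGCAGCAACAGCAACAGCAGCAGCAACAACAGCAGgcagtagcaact
Htt: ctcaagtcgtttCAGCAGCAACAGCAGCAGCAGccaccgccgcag
Atxn3: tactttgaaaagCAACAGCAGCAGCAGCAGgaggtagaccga
Atxn7: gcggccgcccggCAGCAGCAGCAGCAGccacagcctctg
Atxn2: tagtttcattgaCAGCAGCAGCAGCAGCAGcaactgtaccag

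Tbp held the longest glutamine run, 13 codons (58 to 70 of 316), but it is broken up by 4 CAA codons and its longest uninterrupted CAG stretch is 3 units. Htt followed with 7 glutamine codons at positions 18 to 24, of which at most 4 in a row are CAG. Atxn3 had 6 codons (292 to 297), the first of them CAA, and Atxn7 had 5 (25 to 29), all CAG. The 6 uninterrupted CAG units of Atxn2 are the longest in the set, but they are read in another frame, as AGC codons for serine, and its longest glutamine run is 3 codons. In Ppp2r2b, whose sequence is not printed, the longest CAG run is 3 units and the longest glutamine run 2 codons. Runs as long as the glutamine runs of Tbp, Htt, Atxn3 and Atxn7, or the CAG run of Atxn2, are uncommon in the mouse transcriptome. Of 21550 genes with a coding sequence, 252 (1.17%) had 5 or more glutamine codons in a row and 58 (0.269%) had 12 or more. Of 55141 genes, 291 (0.528%) had 6 or more uninterrupted CAG units in any transcript.

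Reads assigned to genes ranged from 15855751 to 45265719 per library. Libraries 409 and 411, both Het DMSO, stood apart from the other 10. In 409 mitochondrial transcripts made up 0.0795% of gene reads against 1.85% to 2.81% elsewhere, and the deviation of a gene from its median followed its GC content (Spearman's rho 0.697 across genes, against -0.261 to 0.241 in the others). Library 411 went against its tissue label: the Purkinje marker Pcp2 was at 0.554 CPM (counts divided by the TMM-scaled depth of the library and brought to a common total) and the granule cell marker Gabra6 at 0.605, while every other library had at least 70.1 and 227, and its summed level of 15 midbrain and brainstem markers was the highest, 181 CPM. Library 410, Het Hit 2, was next with 76.7 CPM, against 2.82 to 36.9 in the rest, and after 411 it had the lowest summed Purkinje markers (3909 CPM, against 5483 to 8910 in the rest) and granule markers (4376 CPM, against 4762 to 9828). Tests and list medians of the groups are given with all libraries and, where these libraries bear on them, without 409 and 411. Xist showed that both sexes occurred in the WT DMSO group only (425 and 426 at 1391 and 1462 CPM, all others at most 0.289).

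All 7 genes passed the filter on low counts and were measured in every library. Per kilobase of counted exon, Htt stood highest, with a median of 20.7 CPM per kb over the 12 libraries (16.2 to 30.7). Atn1 (12.3, from 9.79 to 16.3), Atxn2 (11.1, from 9.70 to 11.5), Atxn7 (9.47, from 5.91 to 10.5) and Ppp2r2b (9.31, from 6.95 to 19.7) came next with ranges that overlap each other. Atxn3 (4.35, from 1.95 to 5.57) and Tbp (4.23, from 2.15 to 5.40) were lowest and overlap. The Htt range also overlaps those of Atn1 and Ppp2r2b, and in 411 Ppp2r2b (19.7) was above Htt (16.2), so the place of Htt holds for the medians. The order of neighbours within these tiers did not go beyond the spread of the libraries. The place of Atn1 is uncertain. In GENCODE M21, 3874 of its 4600 exon bases are shared with Gm45234, a gene on the same strand that is also in the tables, and STAR assigns a read in a shared exon to neither gene, so its level was divided by the other 726 bases. The annotation the authors counted with is not given in the sources used here, and over all 4600 bases the Atn1 median would be 1.94 CPM per kb, the lowest of the set. Annotated exon length includes 3′ regions that the cerebellum may not use, so the tiers depend on the annotation.

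**Figure D1:**
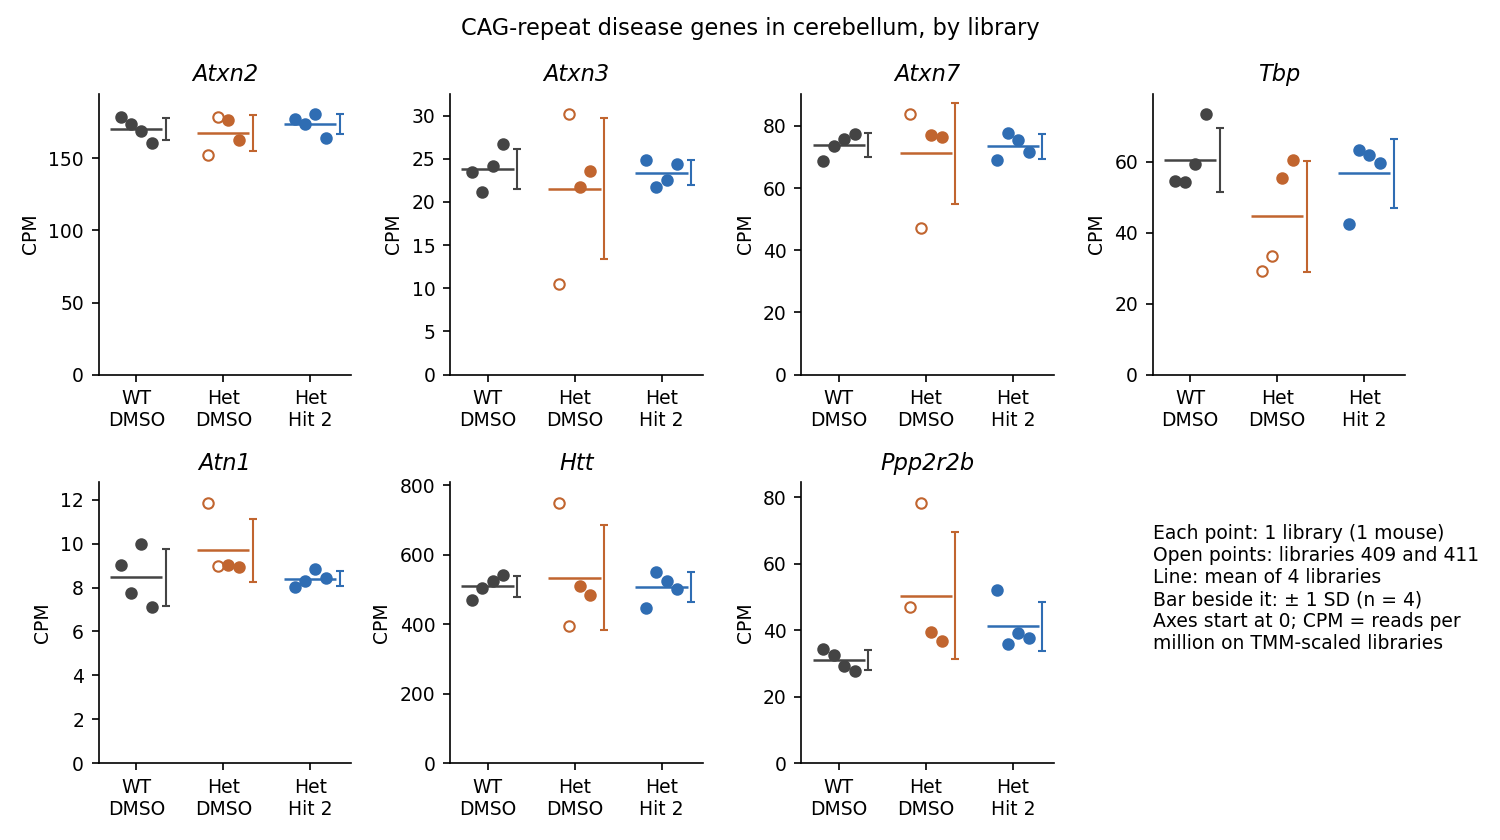
Level of each gene in CPM (vertical axes, from 0) in the 12 libraries by group, with the mean as a line and the SD of the 4 libraries as a bar. In Htt, Atxn7, Atxn3 and Tbp the wide Het DMSO spread comes from the open points (409 and 411), and in Ppp2r2b every Het library lies above every WT DMSO library.

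No member differed between the groups at an adjusted p under 0.05. In the edgeR quasi-likelihood fit over 19378 genes, 0 of 7 members passed in the joint test of the 3 groups, where 1 gene in all did (0.00516%). Equally, 0 of 7 passed for Het DMSO against WT DMSO (0.00516% of all genes), for Hit 2 against DMSO in the Het mice (0.0%) and for Het Hit 2 against WT DMSO (0.00516%). At an unadjusted p under 0.05, 1 member, Ppp2r2b, passed in the joint test (3.11% of all genes) and in Het DMSO against WT DMSO (7.11%), and none in the comparisons with Het Hit 2 (1.55% against Het DMSO and 1.71% against WT DMSO). Without 409 and 411 the only such case was Ppp2r2b in Het Hit 2 against WT DMSO, where 9.73% of all genes passed; 6.0% did for Het DMSO over WT DMSO and 3.7% for Het Hit 2 over Het DMSO. Groups that did not overlap occurred in 3 of the 21 member comparisons, for Ppp2r2b and Atn1. Of all genes, 1.94% lay higher and 2.45% lower without overlap in Het DMSO than in WT DMSO (4.39% either way). For Het Hit 2 over Het DMSO the shares were 0.635% and 0.392% (1.03%), and for Het Hit 2 over WT DMSO 2.9% and 3.42% (6.32%). The median log2 fold change of the 7 was -0.03 for Het DMSO over WT DMSO (all genes tested 0.05). It was 0.04 for Het Hit 2 over Het DMSO (all genes -0.04) and -0.01 for Het Hit 2 over WT DMSO (all genes 0.02). Without 409 and 411 these medians were -0.02, 0.03 and -0.02, in the same order (all genes -0.0043, 0.0088 and 0.0096). Without 411 alone, the medians for Het DMSO over WT DMSO and Het Hit 2 over Het DMSO turned to 0.11 and -0.03. The 3 comparisons share groups, so their values are not independent of each other. In each exact permutation test of 4 libraries against 4 below, two-sided on log2 CPM, 0.0286 is the smallest p the design allows, and 21 such tests were made.

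Htt encodes huntingtin, a large scaffold protein of vesicle transport and the Huntington disease gene. It was at 469, 503, 523 and 541 CPM in the WT DMSO libraries, in the order in which the groups are listed above. The Het DMSO libraries had 749 (409), 396 (411), 509 and 483 CPM. Het Hit 2 libraries had 448, 550, 526 and 502 CPM. The highest and the lowest of the 12 are 409 and 411, and the other 10 lie between 448 and 550. The Het Hit 2 mean was 506 ± 43.7 CPM and the Het DMSO mean 534 ± 151 (SD, n = 4 each), or -0.08 on the log2 scale with an SE of 0.18 (edgeR adjusted p = 0.924). The 95% interval of that fold was 0.725 to 1.24, and 0.884 to 1.17 without 409 and 411. Against WT DMSO (509 ± 30.9 CPM), Het DMSO differed by 0.07 on the log2 scale (SE 0.18, adjusted p = 0.885). Without 409 and 411 both directions turned, to 0.03 for Het Hit 2 over Het DMSO and -0.05 for Het DMSO over WT DMSO.

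Atxn2 encodes ataxin-2, an RNA-binding protein of stress granules and translation, the gene of SCA2. Its levels were 179, 174, 169 and 161 CPM in WT DMSO. They were 152 (409), 179 (411), 176 and 163 in Het DMSO, and 177, 174, 181 and 164 in Het Hit 2. The groups overlap throughout, and 409, the lowest, is 0.19 log2 units below the median of the other 10. With a coefficient of variation of 4.16% over those 10 libraries, Atxn2 was the steadiest of the set. Hit 2 against DMSO in the Het mice gave a fold of 1.04 (95% interval 0.898 to 1.20, edgeR adjusted p = 0.904), and 0.926 to 1.13 without 409 and 411.

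Atxn7, the SCA7 gene, encodes a subunit of SAGA, a complex that modifies histones at promoters. WT DMSO libraries had 68.7, 73.5, 75.8 and 77.4 CPM. Het DMSO libraries had 83.7 (409), 47.1 (411), 77.2 and 76.4, and Het Hit 2 libraries 68.9, 77.6, 75.3 and 71.5. Again 409 is the highest and 411 the lowest, and the coefficient of variation over the other 10 was 4.60% against 12.5% over all 12. The fold for Hit 2 in the Het mice was 1.03 (0.817 to 1.30, edgeR adjusted p = 0.948), and 0.954 (0.859 to 1.06) without 409 and 411.

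Atxn3, the gene of SCA3, encodes a deubiquitinase that works in protein quality control. It was at 23.4, 21.1, 24.1 and 26.7 CPM in WT DMSO. In Het DMSO it was at 10.6 (409), 30.1 (411), 21.8 and 23.6 CPM. Het Hit 2 libraries had 24.9, 21.8, 22.5 and 24.4 CPM. Library 409 is 1.16 log2 units below the median of the other 10, the farthest of any member there, and 411 is 0.36 above it. Hit 2 against DMSO in the Het mice gave a fold of 1.09 (0.754 to 1.57, edgeR adjusted p = 0.913), narrowing to 1.03 (0.877 to 1.20) without 409 and 411. At 350 to 982 reads per library, counting error alone was 3.19% to 5.35%.

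Tbp encodes the TATA-binding protein, the core of the general transcription factor TFIID, and is the SCA17 gene. WT DMSO libraries had 54.5, 54.4, 59.5 and 73.4 CPM. Het DMSO libraries had 29.2 (409), 33.3 (411), 55.5 and 60.4, and Het Hit 2 libraries 42.3 (410), 63.3, 61.8 and 59.7. The 3 lowest values of the 12 are those of 409, 411 and 410, and all others lie between 54.4 and 73.4. The Het DMSO mean of 44.6 ± 15.6 CPM against 60.4 ± 8.93 in WT DMSO (SD, n = 4 each) was a difference of -0.44 in log2 units with an SE of 0.23 (adjusted p = 0.616 in edgeR, exact permutation p = 0.257). Without 409 and 411 it was -0.07, and without 409 alone it was -0.28. Tbp in Het Hit 2 was 0.35 log2 units above Het DMSO (95% interval of the fold 0.897 to 1.81, adjusted p = 0.898) and -0.03 without these libraries (0.19, 0.22 and 0.53 with 409, 411 or 429 alone left out).

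Atn1 encodes atrophin-1, a transcriptional corepressor, the gene of dentatorubral-pallidoluysian atrophy. Its counted part was at 9.01, 7.74, 9.98 and 7.11 CPM in WT DMSO. Het DMSO libraries had 11.9 (409), 8.97 (411), 9.01 and 8.96, and Het Hit 2 libraries 8.04, 8.29, 8.86 and 8.43. All 4 Het Hit 2 libraries lie below all 4 Het DMSO libraries, a separation that 0.392% of all genes showed in this direction, and both lie within the range of WT DMSO apart from 409. The difference was -0.21 in log2 units with an SE of 0.16 (adjusted p = 0.898 in edgeR, exact permutation p = 0.0286), with a fold of 0.866 (0.682 to 1.10). The lowest Het DMSO value and the highest Het Hit 2 value are 8.96 and 8.86 CPM, and counting error alone is 4.55% to 8.48% per library at 139 to 482 reads. Without 409 and 411 the fold was 0.935 (0.749 to 1.17), and without 409 alone the log2 difference was -0.09.

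**Figure D2:**
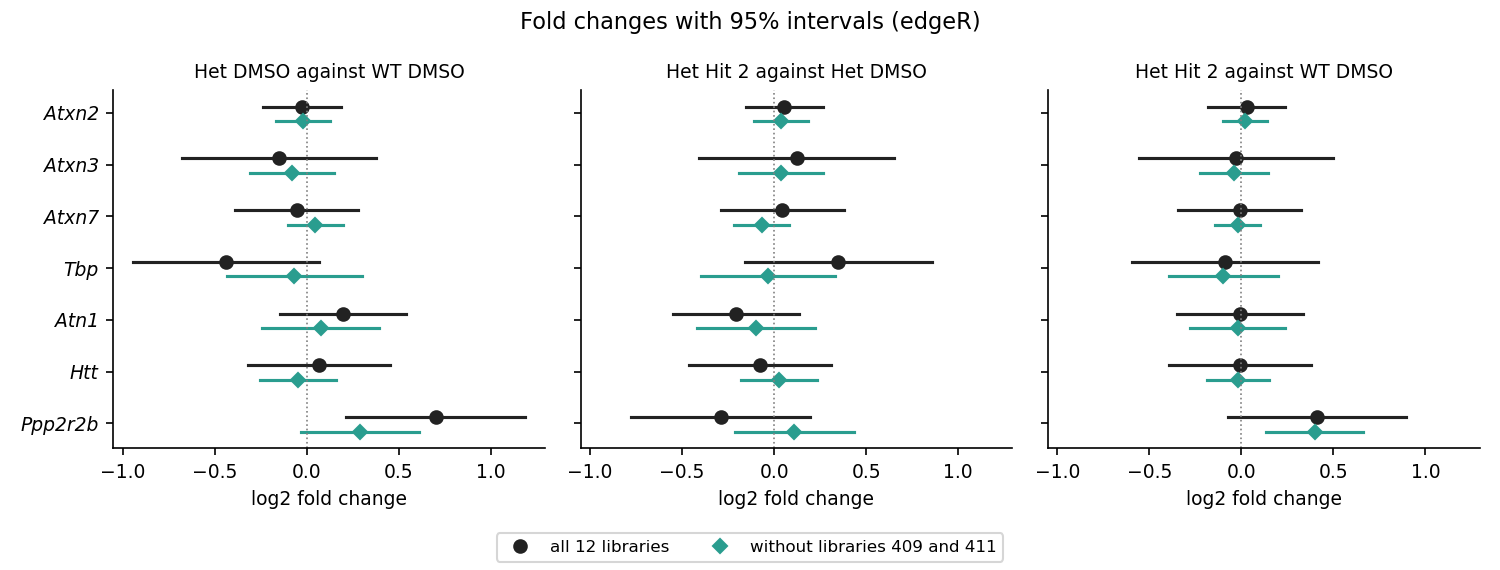
Log2 fold change (horizontal axis) of each gene in the 3 comparisons with its 95% interval, from the edgeR fit with all 12 libraries (circles) and without libraries 409 and 411 (diamonds). With all libraries the Ppp2r2b interval in Het DMSO against WT DMSO is the only one that leaves 0 out. Without 409 and 411 it holds 0 (-0.03 to 0.61) and the Ppp2r2b interval in Het Hit 2 against WT DMSO does not (0.13 to 0.66), and for Het Hit 2 against Het DMSO all 7 intervals hold 0 in both fits.

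Ppp2r2b encodes a brain-enriched regulatory B subunit of protein phosphatase 2A (PP2A) that steers the enzyme to its substrates, and is the SCA12 gene. WT DMSO libraries had 34.5, 32.4, 29.3 and 27.7 CPM. Het DMSO libraries had 47.1 (409), 78.3 (411), 39.5 and 36.7, and Het Hit 2 libraries 52.1 (410), 35.9, 39.3 and 37.5. All 8 Het libraries lie above all 4 WT DMSO libraries, which 0.619% of all genes did (120 genes). Het DMSO lay above WT DMSO without overlap, as for 1.94% of genes, and so did Het Hit 2, as for 2.9% of genes. The means were 50.4 ± 19.1 CPM in Het DMSO, 41.2 ± 7.40 in Het Hit 2 and 31.0 ± 3.05 in WT DMSO (SD, n = 4 each). The fold of Het DMSO over WT DMSO was 1.63 (95% interval 1.16 to 2.28), or 0.70 in log2 units with an SE of 0.22 (adjusted p = 0.616 in edgeR, exact permutation p = 0.0286). Het Hit 2 was 0.41 log2 units above WT DMSO with an SE of 0.22 (adjusted p = 1.000 in edgeR, exact permutation p = 0.0286). Between the Het groups the difference was -0.29 (fold 0.818, 0.584 to 1.14, adjusted p = 0.898; exact permutation p = 0.543).

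The size of the Ppp2r2b difference rested in part on 411. With 411 alone left out, Het DMSO was 0.43 log2 units above WT DMSO and the difference of Het Hit 2 from Het DMSO was -0.03. With 410 alone left out, Het Hit 2 was 0.27 above WT DMSO. Without 409 and 411, Het DMSO was 0.29 log2 units above WT DMSO (edgeR adjusted p = 0.886) and Het Hit 2 was 0.11 above Het DMSO. Het Hit 2 was then 0.40 above WT DMSO (unadjusted p = 0.00707 and adjusted p = 0.239 in edgeR, with the same libraries of these groups and so the same exact permutation p = 0.0286). With 410 left out as well, an alternative chosen after the data were seen, the log2 differences from WT DMSO were 0.30 (edgeR adjusted p = 0.371) and 0.28 (adjusted p = 0.25), and the 5 remaining Het libraries, at 35.9 to 39.5 CPM, were still above the 4 WT DMSO libraries at 27.7 to 34.5. Over the 21 alternative fits the adjusted p of Ppp2r2b ran from 0.288 to 0.886 in Het DMSO against WT DMSO and from 0.196 to 1 for Het Hit 2 over WT DMSO. Within the libraries low in Xist, the WT DMSO values were 34.5 and 27.7 CPM against 35.9 to 78.3 in the Het libraries.

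Markers of other cell types separated the same libraries or moved with the highest Ppp2r2b levels. The Purkinje score (15 of 16 markers kept) was 0.30 to 0.39 in the WT DMSO libraries and -2.85 to 0.11 in the 8 Het libraries, and the astroglia and Bergmann glia score (12 of 12) was 0.03 to 0.28 and -0.82 to -0.0068. Summed Purkinje markers were at 8517 to 8910 CPM in WT DMSO and 1066 to 8092 in the Het libraries, and summed astroglia markers at 3734 to 4147 and 2718 to 3241 CPM. Both lists thus lay lower in all 8 Het libraries than in all 4 WT DMSO libraries, the reverse of Ppp2r2b. Summed cerebellar interneuron markers did so as well, at 738 to 779 CPM in WT DMSO and 365 to 731 in the Het libraries. Their scores overlapped, at 0.05 to 0.14 and -0.87 to 0.07. The share of all genes that lay lower in this way is not given here. A score is the mean over a list's kept markers of log2 CPM relative to the median library. For midbrain and brainstem markers (8 of 15 kept) it was 4.39 in 411 and 3.87 in 410, where Ppp2r2b was at 78.3 and 52.1 CPM. In the WT DMSO group the midbrain score ran from -0.45 to 1.87, and 413, with the highest score, also had the highest Ppp2r2b of that group. Library 409 had 47.1 CPM of Ppp2r2b at a score of -1.04, and 422 had 39.3 at -1.06, both above every WT DMSO library. Of the 15 midbrain and brainstem markers, 2 were without a read in each of 411 and 410, and 1 to 9 in the other libraries. Of these markers, the dopamine transporter Slc6a3 was at 36.2 CPM in 411 and 1.10 in 410, and Gata3 at 31.0 and 9.02. Others set 411 and 410 less apart. Th was at 32.1 and 7.05 CPM, with 17.5, 11.4 and 13.1 in 425, 426 and 431. Chat was at 1.97 and 4.63 CPM, with 1.43 in 413. The glutamate transporter Slc17a6, listed here with the forebrain neuron markers, was at 278 and 84.5 CPM in 411 and 410. Summed oligodendrocyte markers were at 6868 and 5709 CPM in 411 and 410 against 1333 to 3556 elsewhere. Microglia scores were 1.26 and 0.72 in 411 and 410 (at most 0.23 elsewhere), and endothelium scores 0.40 and 0.38 (at most 0.10 elsewhere). Summed forebrain neuron markers, Slc17a6 included, were at 763 CPM in 411, against 69.4 to 259 in the other libraries. The part of tissue composition in the Ppp2r2b difference was not tested beyond leaving these libraries out. In bulk tissue fewer cells of a type and less RNA per cell cannot be told apart.

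**Figure D3:**
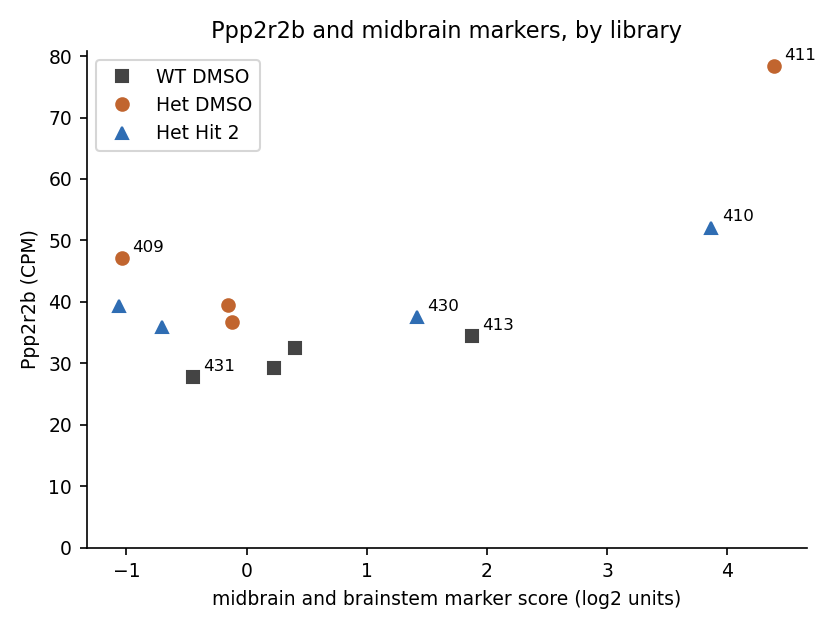
Ppp2r2b level in CPM (vertical axis, from 0) against the score of midbrain and brainstem neuron markers (horizontal axis, log2 units relative to the median library), 1 point per library. Libraries 411 and 410 are highest on both axes, and the other 6 Het libraries, at scores from -1.06 to 1.42, lie above the 4 WT DMSO libraries.

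Libraries 409 and 411 lay apart in both directions. Tbp was below the median of the other 10 libraries in both and Ppp2r2b above it in both, and these 2 members also had the largest differences between Het DMSO and WT DMSO. In 409 Atxn3 and Tbp were 1.16 and 1.03 log2 units below the median of the other 10 libraries and Htt, Atn1 and Ppp2r2b 0.57, 0.46 and 0.38 above it. The longest annotated transcripts of Atxn3, Atxn2 and Tbp have the lowest GC contents of the set (40.6%, 42.6% and 42.7%), and those 3 genes are the ones below the median in 409. Htt (51.1%) and Atn1 (62.0%) have the highest GC contents and the largest rises there. In 411 Ppp2r2b was 1.11 above the median and Tbp and Atxn7 0.84 and 0.68 below it. Atxn2 (0.04) and Atn1 (0.05) were close to the median in that library. The part of GC content or tissue in these deviations was not tested. The spread over the other 10 libraries was widest for Ppp2r2b (coefficient of variation 18.5%) and Tbp (13.5%), followed by Atn1 (9.40%), Atxn3 (7.27%), Htt (6.31%), Atxn7 (4.60%) and Atxn2 (4.16%).

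**Figure D4:**
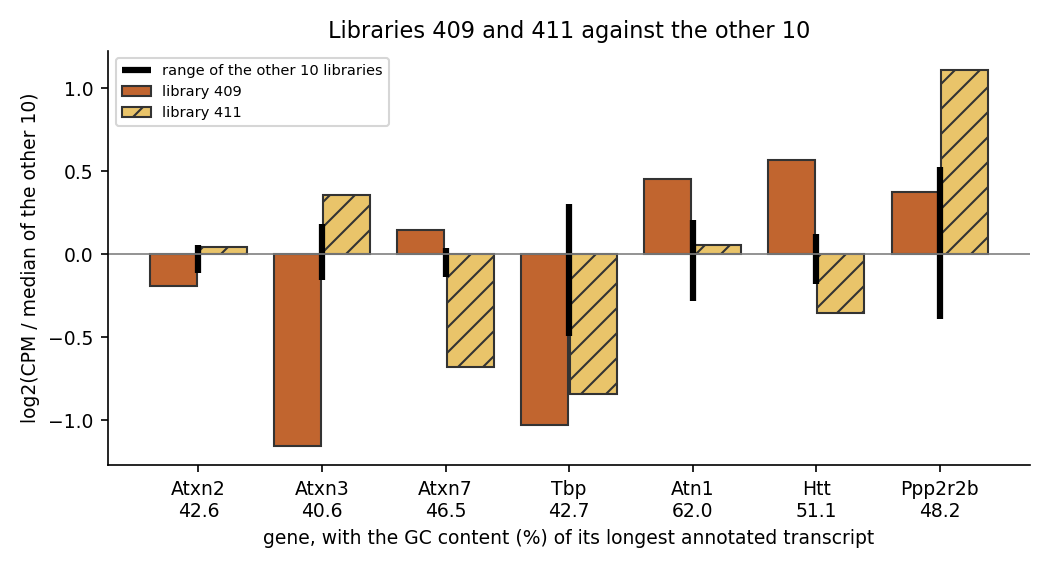
Log2 ratio of the CPM in library 409 (plain bars) and 411 (hatched bars) to the median of the other 10 libraries, for each gene, with the range of those 10 as a black line and the GC content of the longest transcript under each name. Atxn3 and Tbp are lowest in 409, at -1.16 and -1.03, and Ppp2r2b is highest in 411, at 1.11.

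Reads on the strand opposite to a gene were counted in separate columns of the same tables, and over all genes they made up 5.21% to 6.47% of a library's gene reads. For Tbp they were 16.5% to 31.4% of its reads, 4425 against 17930 on its own strand over the 12 libraries, the highest share in the set. Tbp shares 2582 exon bases with Pdcd2, which lies on the opposite strand, and reads of Pdcd2 there and of any other antisense RNA cannot be told apart. The Tbp share was 18.2% ± 1.41 in WT DMSO, 23.4% ± 6.05 in Het DMSO and 20.1% ± 2.17 in Het Hit 2 (SD, n = 4 each; exact permutation p = 0.169 over the 34650 assignments to 3 groups). Its highest value, 31.4%, was in 411, the library with the second lowest Tbp level, and 409 and 410 had 24.3% and 23.1%. Atxn2 had 2.01% to 6.50% of its reads on the opposite strand, lowest in 411 and highest in 409. It shares 99 exon bases with Sh2b3, a coding gene on that strand, and reads of Sh2b3 there cannot be told apart either. The group means were 5.46%, 4.44% and 4.37% in WT DMSO, Het DMSO and Het Hit 2 (exact permutation p = 0.410). Atn1 had 0.559% to 4.55%, Atxn7 0.446% to 1.48% and Ppp2r2b 0% to 0.641%. Htt had 60 such reads against 177273 on its own strand, and Atxn3 had 1 in all libraries together. In none of the 7 did the shares differ between the groups at an unadjusted p under 0.05, and the lowest p was 0.156, for Atxn7.

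The wider families and partners of these proteins were read from 8 lists with 103 distinct genes, of which 99 were tested. None passed an adjusted p of 0.05 in any of the 3 comparisons, and 5 had an unadjusted p under 0.05 for Het DMSO over WT DMSO, 1 for Hit 2 over DMSO in the Het mice and 0 for Het Hit 2 over WT DMSO. These are 5.05%, 1.01% and 0%, beside 7.11%, 1.55% and 1.71% of all genes. Without 409 and 411 the counts were 7, 1 and 11, or 7.07%, 1.01% and 11.1%, beside 6.0%, 3.7% and 9.73% of all genes. The median of the 12 direct paralogs tested was 0.04 in Het DMSO against WT DMSO and 0.02 without 409 and 411. Among them, the SAGA subunit gene Atxn7l3 was 0.57 log2 units higher in Het DMSO than in WT DMSO (SE 0.22, edgeR adjusted p = 0.616) and 0.02 without these libraries. Atxn7l3b was 0.34 higher (SE 0.12, edgeR adjusted p = 0.616) and 0.13 without them. It was also the gene under 0.05 in Het Hit 2 against Het DMSO, at -0.29 (edgeR adjusted p = 0.898), and -0.09 without them. Josd2, a relative of Atxn3, differed by 0.26 (edgeR adjusted p = 0.627) and by 0.03 without them.

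The 17 SAGA genes tested, Atxn7l3 among them, had a median of 0.09 in Het DMSO against WT DMSO (0.02 without 409 and 411), and Usp22, the deubiquitinase that works with ataxin-7, was at 0.32 (edgeR adjusted p = 0.616; 0.00077 without them). The 15 TFIID subunits that surround Tbp had a median of -0.01 (0.0053 without them), with Taf5 at -0.38 and Taf11 at 0.30 (-0.16 and 0.04 without 409 and 411). Among 11 ataxin-3 partners in protein quality control the median was 0.16, turning to -0.03 without 409 and 411, and the segregase Vcp was at 0.36 (SE 0.16, edgeR adjusted p = 0.616) but at 0.03 without them. The autophagy receptor Sqstm1 was at 0.46 and, without them, at -0.10. The 9 ataxin-2 partners had a median of -0.11, turning to 0.03 without 409 and 411, with the stress granule gene G3bp1 at 0.30 and the splicing factor Rbfox1 at -0.26 (0.0069 and -0.24 without them). The 15 huntingtin partners had a median of 0.26, falling to 0.01 without 409 and 411, with F8a at 0.38 (edgeR adjusted p = 0.616; 0.17 without them) and the endophilin gene Sh3gl3 at 1.45 (0.08 without them). Medians of all genes tested were 0.05 with all libraries and -0.0043 without these.

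The 10 atrophin partners tested had a median of -0.02 in Het DMSO against WT DMSO and 0.03 without 409 and 411. Among them, the scaffold gene Magi1 had the smallest p of all the lists in that comparison. Its means were 173 ± 16.1 CPM in Het DMSO and 135 ± 9.43 in WT DMSO (SD, n = 4 each), or 0.36 in log2 units with an SE of 0.11 (edgeR adjusted p = 0.616), and 0.24 without 409 and 411. The ubiquitin ligase gene Wwp2 was at 0.31 and 0.02 without them. The 17 other PP2A subunits and regulators had a median of 0.05 (-0.0098 without 409 and 411), and Ppp2r2b, at 0.70, lay above the highest of them, the PP2A activator Ptpa at 0.46 (edgeR adjusted p = 0.616; -0.01 without them). The catalytic complex's scaffold gene Ppp2r1a was at 0.27, and at -0.04 without them. The repeat disease genes Atxn1 (0.09, and 0.02 without them) and Cacna1a (-0.18, and -0.08) had edgeR adjusted p of 0.765 and 0.873. For Hit 2 in the Het mice the 8 list medians ran from -0.18 (huntingtin partners) to 0.11 (TFIID subunits), and in Het Hit 2 against WT DMSO from -0.01 to 0.09. With 409 and 411 left out they ran from -0.01 (TFIID subunits) to 0.04 (SAGA genes) and from -0.02 to 0.08, and the median over the 99 genes for Hit 2 in the Het mice turned from -0.06 to 0.0089.

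**Figure D5:**
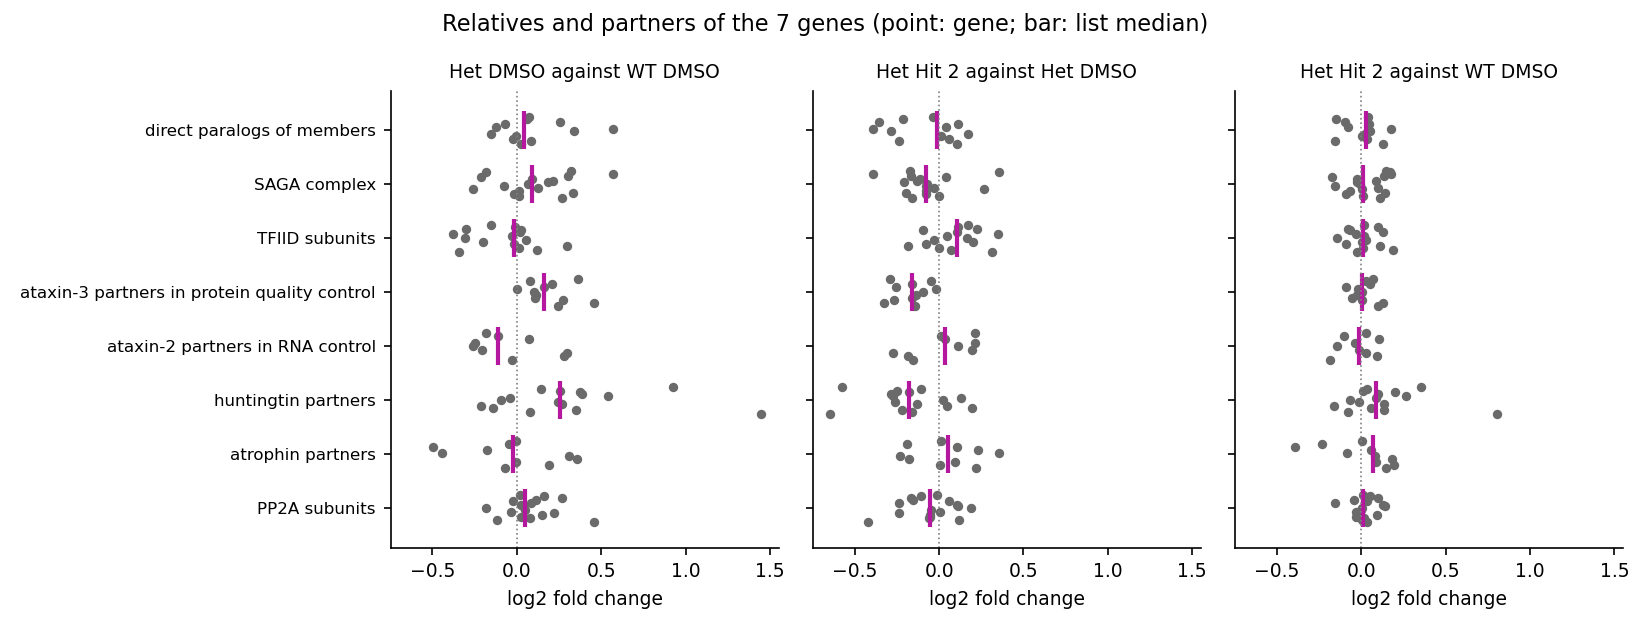
Log2 fold change (horizontal axis) of each tested gene of the 8 lists (1 row per list, 1 point per gene) in the 3 comparisons, with the list median as a bar. No point passed an adjusted p of 0.05, and the list medians of Het Hit 2 against WT DMSO lie between -0.01 and 0.09.

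The CAG runs of the set are short, and the tables also hold genes with longer ones. For Hit 2 in the Het mice, the 185 tested genes with at least 6 CAG units in a row in any transcript had a median log2 fold change of -0.05, next to -0.04 for all 19346 genes with a transcript sequence, and 0 passed an adjusted p of 0.05. At an unadjusted p under 0.05 there were 2 of the 185, beside 1.55% of all genes, and 9 (4.86%) without 409 and 411, beside 3.7% of all genes. The 41 genes with at least 10 units had a median of -0.21, which became 0.07 without 409 and 411, where all genes had 0.01. The 216 genes with 5 or more glutamine codons in a row, Tbp, Htt, Atxn3 and Atxn7 among them, had a median of -0.03, and all 14405 tested genes with a coding sequence -0.08. Without these libraries the medians were -0.01 and 0.01, so the order of the medians turned.

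The genes most like each member over the 12 libraries, by Pearson's r of log2 CPM among 16596 genes, are given as a description with r over the 10 libraries without 409 and 411. For Htt they were Med25 (0.989 and 0.930), Slc26a6 (0.986 and 0.906) and Anks3 (0.985 and 0.951). For Tbp they were Armc8 (0.982 and 0.944), Chic2 (0.978 and 0.946) and Nvl (0.977 and 0.916). For Ppp2r2b they were the neuronal genes Pnma3 (0.980 and 0.954) and Dpysl3 (0.973 and 0.933) with Unc119 (0.978 and 0.931). Atxn3 was closest to Sc5d, Dnajb14 and Mrpl13, where r fell from 0.992, 0.989 and 0.985 to 0.880, 0.826 and 0.736. Atxn7 was closest to Kank2 (0.987 and 0.863), Barhl2 (0.987 and 0.861) and C230057M02Rik (0.986 and 0.912). Atn1 was closest to 0610009E02Rik (0.933 and 0.868), B230322F03Rik (0.917 and 0.822) and Tnfaip3 (0.908 and 0.859). Atxn2, with the least spread, had the lowest values, Gm22543 (0.895 and 0.794), Epb41l4aos (0.875 and 0.830) and Memo1 (0.874 and 0.769). For all of these genes r was lower without 409 and 411, and the points of each pair share libraries and their depth.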

How the data were processed

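Cerebellar RNA depleted of ribosomal RNA was sequenced as pairs of 100 bases, per the labels' protocols. The authors deposited raw counts by gene, a table for each library, as written by STAR, which the submitters' processing notes name as version 2.7.10a beside FastQC 0.11.9 and GRCm39. The annotation release is not given in the sources used here. Counts on the gene's strand entered all tests. Symbols, exon lengths and transcripts came from GENCODE M21 (GRCm38), which matched 55141 of 55401 identifiers (260 did not match), so no coordinates are printed. Unassigned reads (44.7% to 54.6% of a library), multimapping, unmapped and ambiguous reads stayed out of library sizes.

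Genes kept by filterByExpr (19378) entered 1 edgeR 4.0.16 quasi-likelihood fit (R 4.3.3, TMM) over 12 libraries, two-sided, with Benjamini-Hochberg adjustment over all of them and a threshold of 0.05. Log2 CPM used a prior count of 2. Intervals are at 95%. The script was tested on simulated data. Alternatives included DESeq2 1.42.0 and voom with library quality weights (limma 3.58.1). Groups came from the labels. Each library is 1 mouse, and litters and runs were not used here.

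The members and lists were chosen with earlier results of these data known. Named were all members, the 3 genes most like each member (mean of at least 1 CPM), up to 3 paralogs, Atxn1 and Cacna1a, and up to 2 genes per other list by smallest p in Het DMSO against WT DMSO. Some genes and repeat sequences are not reported here.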

Additional observations from a re-analysis of the deposited data

Results flagged for a closer look

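Within groups of 4, 42 sets of values were searched for a library far from the other 3, and 3 were found. Chance alone gives about 1 in 20, or 2.1 here. Atn1 in library 409 of the Het DMSO group was at 11.9 CPM, with the nearest of the other 3 at 9.01. The share of Ppp2r2b reads on the opposite strand was 0.641% in library 431 of the WT DMSO group, with the nearest at 0.0725%, and it rests on 4 reads. The share for Atxn3 was 0.167% in library 411 of the Het DMSO group, where the other 3 were at 0%, and it rests on 1 read.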

How the results depend on the processing

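No member passed an adjusted p of 0.05 in any of 21 alternative fits (lowest 0.196). Of 441 recomputed member fold changes, 395 kept their direction and 46 reversed, none of the reversed beyond 0.144 in size. The cause was not tested. No paired analysis was possible because animal numbers do not recur between groups. All values below are log2 fold changes or counts of genes.

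Genes called between any groups (1 with all libraries) numbered 41 with DESeq2, 4 with no filter, 65 with voom, 54 without 409 and 411 and 133 without 409, 410 and 411, and 1 to 11 when 1 library was left out, with 4 without 409 and 11 without 411. In Het DMSO against WT DMSO (1) they numbered 43 with DESeq2, 0 with only the 2 groups, 98 with voom, 20 without 409 and 411, 86 without all 3, and 1 to 9 with 1 left out. In Het Hit 2 against WT DMSO (1) they numbered 24, 4 with no filter, 50 with only the 2 groups, 0 with a sex covariate, 221 with voom, 96, 109 and 0 to 14. In Het Hit 2 against Het DMSO 0 were called in every fit, with 301 at an unadjusted p under 0.05.

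The member median ran from -0.052 to 0.11 (Het DMSO against WT DMSO) and from -0.029 to 0.080 (Het Hit 2 against Het DMSO) with 1 library left out, both turning without 411 and the former also without 409 (0.0099), and was -0.0025 with voom in the latter. For Het Hit 2 against WT DMSO it was -0.0092 with all libraries and turned with the sex covariate (0.0063), with voom (0.024), without 409, 410 and 411 (0.020), and without 410 (0.011), 426 (0.0047) or 431 (0.0030) alone. Reversals with voom, without 409 and 411, and without all 3 were as follows. In Het DMSO against WT DMSO, Atxn7 was at 0.038, 0.048 and 0.056, and Htt at -0.040, -0.046 and -0.038. Hit 2 in the Het mice put Atxn7 at -0.014, -0.068 and -0.037, Htt at 0.085, 0.027 and 0.084, Atxn3 at -0.0025 with voom, and Tbp at -0.031 and Ppp2r2b at 0.11 without 409 and 411. Against WT DMSO, Het Hit 2 put Atxn7 at 0.0063 with the sex covariate, 0.024 with voom and 0.019 without all 3, Htt at 0.0024, 0.045 and 0.046, Atn1 at 0.060 with the sex covariate and 0.011 without all 3, and Tbp at 0.036 with voom and 0.029 without all 3.

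With 1 library left out, Het DMSO against WT DMSO ran from -0.054 to 0.0099 (Atxn2), -0.35 to 0.071 (Atxn3), -0.15 to 0.11 (Atxn7), -0.14 to 0.21 (Htt), -0.62 to -0.28 (Tbp), 0.078 to 0.29 (Atn1) and 0.43 to 0.83 (Ppp2r2b). Het Hit 2 against Het DMSO ran from -0.10 to 0.31 (Atxn3), -0.14 to 0.14 (Atxn7), -0.23 to 0.13 (Htt), 0.016 to 0.082 (Atxn2), 0.19 to 0.53 (Tbp), -0.27 to -0.090 (Atn1) and -0.43 to -0.029 (Ppp2r2b). Het Hit 2 against WT DMSO ran from -0.012 to 0.056 (Atxn2), -0.082 to 0.017 (Atxn3), -0.043 to 0.011 (Atxn7), -0.15 to 0.019 (Tbp), -0.097 to 0.080 (Atn1), -0.051 to 0.038 (Htt) and 0.27 to 0.47 (Ppp2r2b). Depth is lowest for Atn1, at 139 to 482 reads.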
